A study of Mus musculus with 7 samples.

Results

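The 10 genes described here encode the transcription factors that guide cells of the oligodendrocyte (OL) lineage, and they were taken by name from the 22880 genes of the deposited table. They are Olig1 and Olig2, which encode basic helix-loop-helix proteins, Sox8, Sox9 and Sox10 of the SoxE group, Myrf, the homeobox genes Nkx2-2 and Nkx6-2, and the zinc finger genes Zfp488 and Myt1. RNA was measured by sequencing of polyadenylated transcripts from optic nerves of mice at P14, with both nerves of 1 mouse in 1 sample. Mutant mice (n = 3, olig2cre FASN lox/lox) carried Cre under Olig2 regulatory elements and both floxed alleles of Fasn, which encodes fatty acid synthase. Control mice (n = 4) carried the same floxed alleles without Cre, and both groups were of C57Bl/6 background. Floxed Fasn is thus shared by all samples, whereas Cre is present in the mutants alone. Any effect of the Cre allele itself on RNA levels, including that of Olig2, and any effect of Fasn loss cannot be told apart in this design.

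Olig2 and Sox9 act early in the lineage, when OL progenitor cells (OPCs) are specified, and Olig1, Sox10 and Nkx2-2 are active as progenitors leave the cell cycle. Sox10 then acts with Myrf, whose protein cleaves itself free of a membrane, to switch on genes of myelin. Helix-loop-helix proteins of the Id and Hes families are known to hold this step back. The optic nerve also holds astrocytes, microglia, vessels and meninges, so in these bulk samples fewer OLs and less RNA per OL cannot be told apart.

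Values are FPKM, fragments scaled to transcript length and library size, which allow levels of different genes to be set side by side. Reads recovered from the steps of the deposited normalized counts came to 27452647 to 43462532 per sample. Fasn checked the labels, with a mean of 205 FPKM in control and 56.3 FPKM in mutant nerves and a log2 fold change of -1.86 (SE, standard error, 0.138, limma-trend adjusted p = 0.00312). It passed in all 17 alternative settings. Myelin transcripts were abundant in every sample of this nerve, with Mbp at 17000 FPKM or more. Rbfox3, a marker of neuronal nuclei, did not exceed 1.90 FPKM. Other neuron and retina markers were higher, for Snap25, Gad1 and Rbpms reached 13.7, 13.5 and 14.4 FPKM in mutant samples. Differences between genotypes were tested with limma-trend on log2(FPKM + 0.5) over 13866 genes, with an adjusted p under 0.05 as threshold, and fold changes are given on that log2 scale, mutant against control. The labels also number the samples without saying what a number stands for. Same-numbered samples tended to deviate together, though mutant sample 1 was closer to control sample 4 than to control sample 1. The pairing was thus assumed from these same values. Results that depend on a fit with this number as a replicate block are given with it.

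Of the 10 genes, 4 passed the threshold, namely Olig2, Sox8, Zfp488 and Myt1. All 4 fell in mutant nerves, and none of the 10 rose. From its own test of these samples, the paper reports reduced Olig1, Sox8, Sox10 and Myrf in mutant nerves. For Sox10 and Myrf it also reports a reduction by quantitative PCR of optic nerves. Missing the threshold here is thus not evidence that Olig1, Sox10 or Myrf was unchanged. Among all genes tested, 1.36% were called lower and 1.26% higher. The log2 fold change was negative for 9 of the 10 factors, with a median of -0.36, whereas 39.9% of all genes had a negative fold change and their median was 0.05. In 6 of the 10 (Olig2, Sox8, Sox10, Myrf, Zfp488 and Myt1) every mutant sample lay below every control sample, a separation seen in 8.26% of all genes. With the replicate block 5 of the factors fell and Sox9 rose, beside 1.94% of all genes called lower and 6.42% called higher in that fit. The number of factors called depended on single mice. It was 0 without control sample 2, control sample 3 or mutant sample 3, 2 without control sample 4 and 5 without mutant sample 2. It was 1 without control sample 1, namely Nkx2-2, which was not among the 4, and 1 without mutant sample 1, namely Myt1. The calls over all genes moved alike, from 188 lower and 175 higher to 13 and 2, 4 and 2, and 5 and 1 in the fits with 0 factors, and to 344 and 563 without mutant sample 2.

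**Figure D1:**
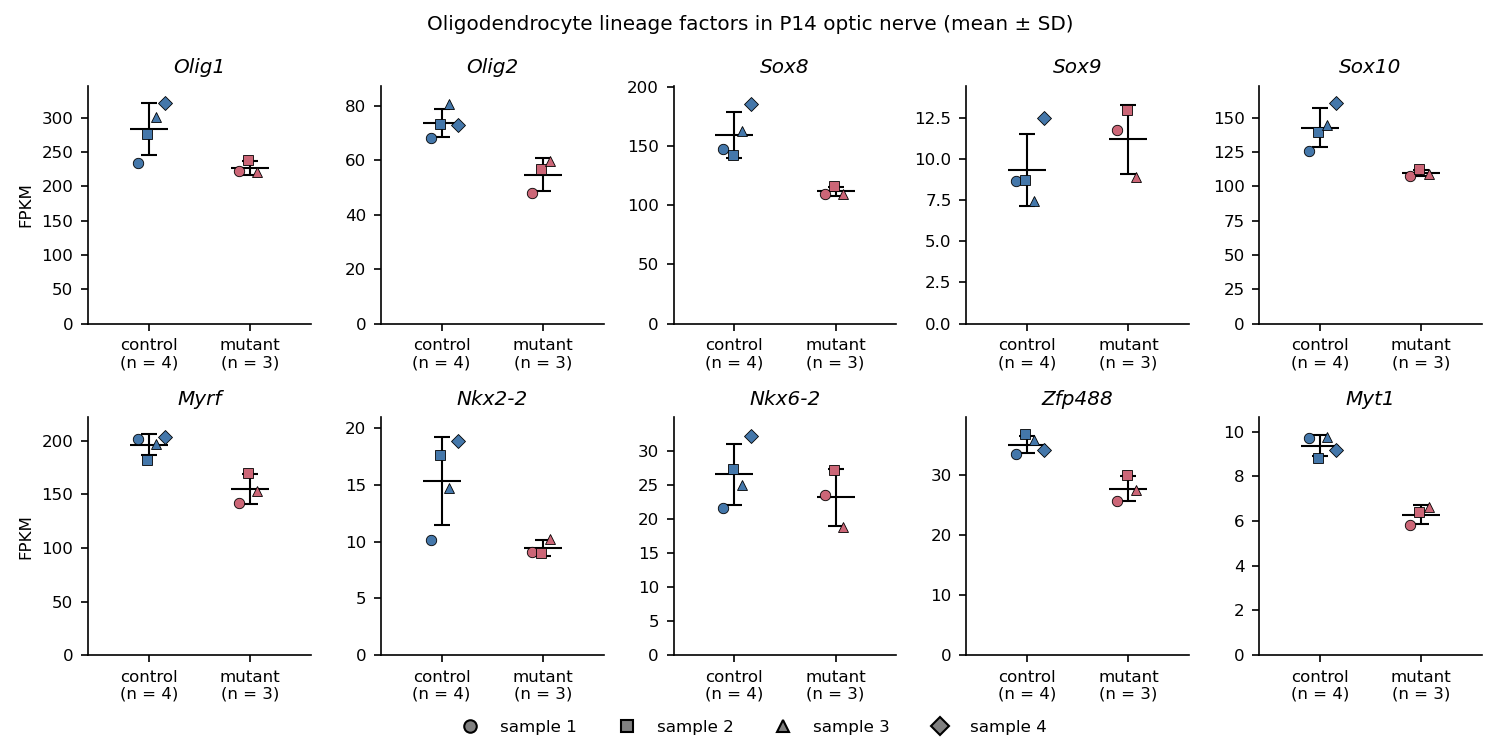
FPKM of each of the 10 factors in 4 control and 3 mutant optic nerve samples, with a symbol per sample number, a horizontal bar for the mean and error bars for the SD. Mutant samples lie below all control samples in 6 panels (Olig2, Sox8, Sox10, Myrf, Zfp488 and Myt1) and overlap with them in the other panels.

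The sequences upstream of the 4 genes that fell are shown because these 4 passed the threshold. E-boxes and SOX cores were searched because they are the elements that members of this very group bind. RefSeq start sites on GRCm38.p6 gave a region for 6 of the 10 factors, each reaching 250 bases upstream. Letters are the gene's own strand from 5′ to 3′, in lower case, with motif matches in capitals. The region of Olig2 is chr16:91225300-91225456 (plus strand) and stops 93 bases short of the start site, where another annotated transcript begins. Those of Sox8 (chr17:25570687-25570936, minus strand), Zfp488 (chr14:33978765-33979014, minus strand) and Myt1 (chr2:181763082-181763331, plus strand) end at the base before the start site, for Myt1 the one of 3 listed starts that matches the deposited coordinates.
Olig2: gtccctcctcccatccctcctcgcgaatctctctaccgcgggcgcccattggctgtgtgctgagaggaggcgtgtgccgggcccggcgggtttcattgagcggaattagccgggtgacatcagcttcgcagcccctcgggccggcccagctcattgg
Sox8: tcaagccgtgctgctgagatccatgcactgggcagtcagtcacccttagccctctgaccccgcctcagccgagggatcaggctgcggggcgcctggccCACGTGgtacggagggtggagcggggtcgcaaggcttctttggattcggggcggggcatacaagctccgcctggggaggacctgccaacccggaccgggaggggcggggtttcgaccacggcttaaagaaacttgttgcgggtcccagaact
Zfp488: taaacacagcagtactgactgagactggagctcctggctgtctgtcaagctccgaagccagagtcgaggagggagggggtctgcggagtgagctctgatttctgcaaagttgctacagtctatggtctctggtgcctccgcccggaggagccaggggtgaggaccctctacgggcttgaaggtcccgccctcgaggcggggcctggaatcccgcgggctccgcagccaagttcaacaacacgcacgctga
Myt1: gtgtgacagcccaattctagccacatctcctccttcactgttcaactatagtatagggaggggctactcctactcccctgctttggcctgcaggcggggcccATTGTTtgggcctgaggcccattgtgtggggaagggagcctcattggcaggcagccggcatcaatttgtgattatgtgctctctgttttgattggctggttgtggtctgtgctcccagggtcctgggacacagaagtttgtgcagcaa
Capitals mark an E-box (CANNTG) in Sox8 and a SOX core (AACAAT, here on the opposite strand) in Myt1. The Olig2 region held a SOX core in the bases not printed, and Zfp488 held neither motif. Both strands were searched, and the letters for which MYRF is known, CTGGCAC and CTGGTAC, were searched as well. Over the 6 regions, 3 held an E-box (Sox8, Nkx2-2 and Nkx6-2), 2 a SOX core (Olig2 and Myt1) and none either MYRF motif. The whole region of Nkx2-2 lies within another annotated transcript of that gene. Among 32851 regions of the same length an E-box was present in 66.2%, a SOX core in 9.42%, CTGGCAC in 4.19% and CTGGTAC in 1.83%. A match of letters is a description and not evidence of binding.

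Olig1 and Olig2 lie 41.1 kb apart on chromosome 16. Olig2 (ENSMUSG00000039830, chr16:91225550-91228677, plus strand) is needed for OPCs to form. Controls 1 to 4 had 68.2, 73.4, 80.8 and 73.1 FPKM, against 47.9, 56.8 and 59.6 FPKM for mutants 1 to 3. All mutant samples were below the lowest control, and mutant sample 1 was the lowest. From a mean of 73.9 ± 5.20 (SD, n = 4) to 54.8 ± 6.12 (SD, n = 3), Olig2 fell by 0.43 in log2 units (SE 0.0884, limma-trend adjusted p = 0.0439), to 74.2% of the control level. Leaving out any sample other than mutant sample 2 took it above the threshold, with an adjusted p of up to 0.133 (limma-trend, without control sample 3). With all samples kept, the call was also lost without a filter on low values (limma-trend adjusted p = 0.0929). The same gene's regulatory elements drive Cre in these mice, and whether the allele that carries Cre still gives Olig2 transcript is not given in the sources used here.

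Olig1 (ENSMUSG00000046160, chr16:91269772-91271933, plus strand) was the most abundant of the 10 factors and is known for its role in OL maturation and repair. Control samples 1 to 4 had 233.5, 277.2, 301.7 and 321.7 FPKM, and mutant samples 1 to 3 had 222.7, 239.1 and 220.7 FPKM. The mutant samples lay close together, but control sample 1 fell within their range and the groups overlapped. Means of 284 ± 38.0 (SD, n = 4) and 228 ± 10.1 (SD, n = 3) gave a log2 fold change of -0.31 (SE 0.105), which did not pass (limma-trend adjusted p = 0.127). The 95% interval of that difference was -0.55 to -0.07. Per sample, Olig2 was 0.227 to 0.292 of Olig1 in control and 0.215 to 0.270 in mutant nerves, so the groups overlapped. The difference was -0.13 on the log2 scale (exact two-sided permutation p = 0.4, adjusted over 5 ratios 0.5). With 4 against 3 samples this test cannot give less than 0.0571, so it could not call any of the ratios.

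The SoxE genes did not share 1 direction of fold change. Sox8 (ENSMUSG00000024176, chr17:25565892-25570686, minus strand), which is known to share functions with Sox10 in OLs, had 147.9, 142.3, 163 and 185.8 FPKM in control samples 1 to 4. Mutant samples 1 to 3 had 109.8, 116.1 and 109.5 FPKM, a narrow range well below the lowest control. Sox8 fell by 0.51 (SE 0.0916, limma-trend adjusted p = 0.0336), to 70.0% of the control mean of 160 ± 19.4 (SD, n = 4). The call was kept without control 4 or mutant 2 and lost when any other sample was left out (adjusted p of 0.0595 to 0.115, limma-trend). With all samples kept, it was also lost without a filter on low values (limma-trend adjusted p = 0.0789).

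Sox10 (ENSMUSG00000033006, chr15:79154913-79164490, minus strand), drives genes of differentiation and myelin. It had 125.9, 139.7, 145 and 160.7 FPKM in controls 1 to 4, and in mutants 1 to 3 it had 107.9, 112.3 and 109.1 FPKM. Again no mutant sample reached the lowest control, which was control sample 1. The log2 fold change of -0.37 (SE 0.0811) missed the threshold narrowly (limma-trend adjusted p = 0.0502). In the fit with the replicate block it was -0.31 and passed (limma-trend adjusted p = 0.0473, against 0.0131 to 0.148 over its 17 alternatives). Expressed per sample, Sox8 was 1.02 to 1.17 times Sox10 in control and 1.00 to 1.03 times in mutant nerves. The groups overlapped in this ratio (difference -0.13, exact two-sided permutation p = 0.114, adjusted 0.190), and the test could not have passed the threshold with so few samples.

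Sox9 (ENSMUSG00000000567, chr11:112782224-112787760, plus strand) specifies glia early and is known to stay on in astrocytes, while it is low in mature OLs. It was the only factor of the 10 with a positive fold change. Control samples 1 to 4 had 8.70, 8.72, 7.45 and 12.5 FPKM, and mutant samples 1 to 3 had 11.8, 13.0 and 8.91 FPKM. The groups overlapped, since control sample 4 exceeded mutant samples 1 and 3, and mutant sample 3 was the lowest mutant. The log2 fold change was 0.26 (SE 0.178, limma-trend adjusted p = 0.397), and leaving out 1 sample gave 0.15 (without mutant sample 2) to 0.41 (without mutant sample 3). Within the 3 same-numbered pairs Sox9 was higher in the mutant each time, and with the replicate block, to which control sample 4 adds nothing, it rose by 0.40 (limma-trend adjusted p = 0.0494, against 0.0494 to 0.667 over its alternatives).

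Sox9 relative to Sox10 was 0.0691, 0.0624, 0.0514 and 0.0779 in controls 1 to 4, as against 0.109, 0.116 and 0.0816 in mutants 1 to 3, so that every mutant ratio exceeded every control ratio. The difference was 0.65 on the log2 scale, with an exact two-sided permutation p of 0.0571, the smallest that 35 splits of 4 against 3 samples can give, and 0.190 adjusted over the 5 ratios. Astrocyte markers were higher in the mutants as well. All 10 markers of the list had a positive fold change, 4 rose past the threshold (Aldoc, Aldh1l1, Gja1 and Slc1a2), and none was at 0 in any sample. Their summed level was 3378 to 3807 FPKM in control and 4245 to 5222 FPKM in mutant samples. The part of these cells in the values of Sox9 was not tested.

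**Figure D2:**
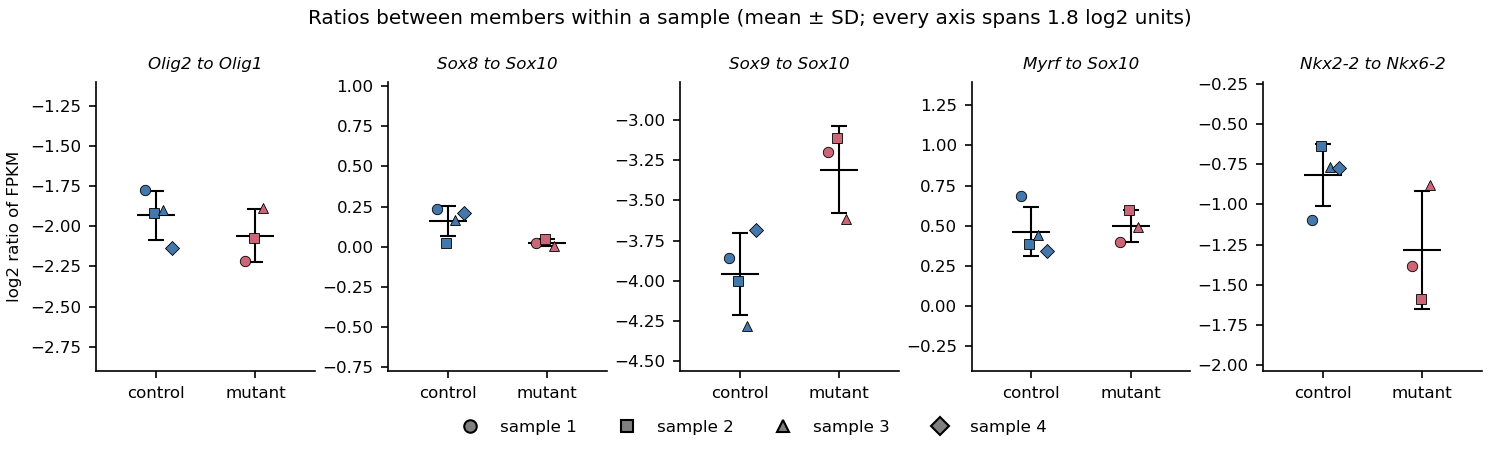
Log2 ratio of FPKM between 2 factors within a sample for 5 pairs, with a symbol per sample number and bars for mean and SD; each axis spans the same number of log2 units. The ratio of Sox9 to Sox10 is the one in which the 3 mutant samples lie above all 4 control samples.

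Myrf (ENSMUSG00000036098, chr19:10208272-10240748, minus strand) is required for myelin gene expression and its maintenance. Values of 202.1, 182.6, 197.1 and 204 FPKM in controls 1 to 4 stood against 142.3, 169.9 and 153.6 FPKM in mutants 1 to 3. The controls were tight around their mean (196 ± 9.68, SD, n = 4), and mutant sample 2 came nearest to them without reaching them. The log2 fold change was -0.34 (SE 0.0749, limma-trend adjusted p = 0.0522, 95% interval -0.51 to -0.17). It passed without mutant sample 2 (limma-trend adjusted p = 0.0303, against 0.0128 to 0.150 over its alternatives). Set against Sox10, its partner on myelin genes, Myrf was 1.27 to 1.61 times as abundant in control and 1.32 to 1.51 times in mutant nerves. The ratio differed by 0.03 on the log2 scale (exact two-sided permutation p = 0.743, also after adjustment), and the sign of so small a difference turned with the replicate block, without control sample 4 and without mutant sample 2.

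Nkx2-2 (ENSMUSG00000027434, chr2:147177546-147186404, minus strand) sets the time at which OPCs differentiate. Control samples 1 to 4 had 10.1, 17.6, 14.8 and 18.9 FPKM and mutant samples 1 to 3 had 9.06, 9.04 and 10.2 FPKM. Nearly all of the spread was in the controls. Control sample 1 sat among the mutant values, just below mutant sample 3, and the other controls were well above. The log2 fold change of -0.64 was the most negative of the 10 factors, but its standard error of 0.186 was also the highest, and it did not pass (limma-trend adjusted p = 0.0940). Without control sample 1 it was -0.82 and passed (limma-trend adjusted p = 0.0418, against 0.0408 to 0.208 over its alternatives). Between 446 and 1099 reads per sample lay behind these values.

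Nkx6-2 (ENSMUSG00000041309, chr7:139579376-139582797, minus strand), a factor of differentiated OLs known for its role at the paranodes of myelin, differed least among the factors. Controls 1 to 4 had 21.6, 27.4, 25.1 and 32.3 FPKM and mutants 1 to 3 had 23.6, 27.2 and 18.8 FPKM, and the groups overlapped broadly. The log2 fold change was -0.20 (SE 0.151, limma-trend adjusted p = 0.455), with a 95% interval of -0.54 to 0.15 that includes falls as large as that of Sox8. It was -0.06 without mutant sample 3, -0.10 without control sample 4 and -0.32 without mutant sample 2. Nkx6-2 overlaps Inpp5a, which is on the opposite strand, and whether the counting used strand is not given in the sources used here. The ratio of Nkx2-2 to Nkx6-2 was 0.469 to 0.643 in control and 0.333 to 0.545 in mutant samples, and the groups overlapped. The log2 difference was -0.46 (exact two-sided permutation p = 0.114, adjusted 0.190), by a test that could not have passed the threshold with so few samples.

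Zfp488 (ENSMUSG00000044519, chr14:33967070-33978764, minus strand) encodes a zinc finger protein that cooperates with Olig2 in OL differentiation. It had 33.6, 36.8, 35.8 and 34.2 FPKM in control samples 1 to 4, the tightest controls of the 10 factors (coefficient of variation 4.23%), and 25.7, 30.0 and 27.5 FPKM in mutant samples 1 to 3. No mutant sample reached the controls. Zfp488 fell by 0.34 (SE 0.0696, limma-trend adjusted p = 0.0454), to 79.1% of the control level. This call was kept without mutant sample 2 and lost when any other sample was left out, with an adjusted p of up to 0.143 (limma-trend, without control sample 3). With all samples kept, it was also lost when scaled by median of ratios (limma-trend adjusted p = 0.0518) and without a filter on low values (0.0775).

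Myt1 (ENSMUSG00000010505, chr2:181763332-181827797, plus strand), which encodes a zinc finger protein known from OPCs, had the smallest p of the 10. Control samples 1 to 4 had 9.72, 8.80, 9.77 and 9.18 FPKM and mutant samples 1 to 3 had 5.82, 6.39 and 6.64 FPKM. The gap between the groups was wider than the whole range within either. Myt1 fell by 0.54 (SE 0.0814, limma-trend adjusted p = 0.0214), to 67.1% of the control mean of 9.37 ± 0.461 (SD, n = 4). It was called in 13 of 17 alternatives, more than any other of the factors, and lost without control sample 1, 2 or 3 or mutant sample 3 (adjusted p of 0.0558 to 0.0962, limma-trend).

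**Figure D3:**
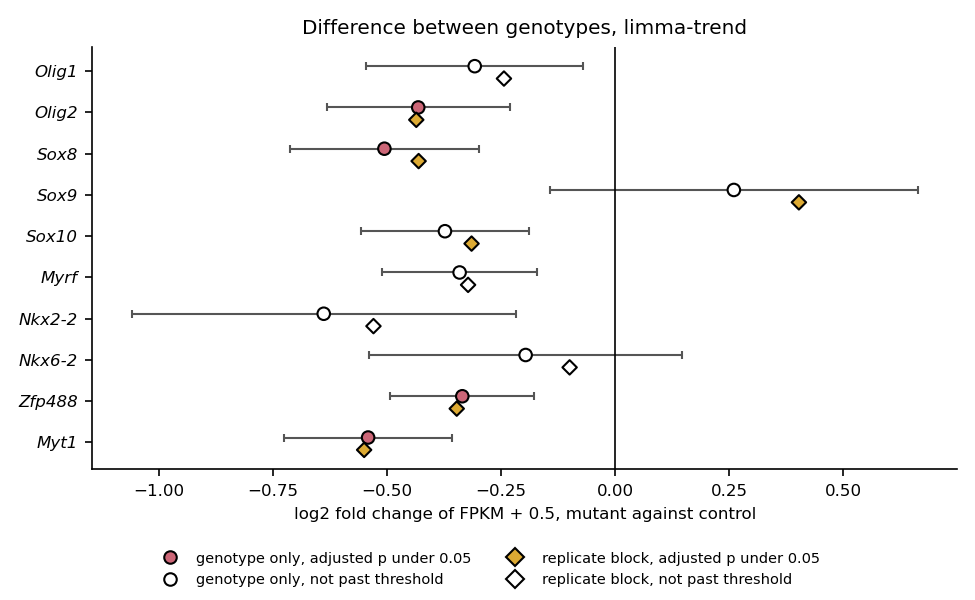
Log2 fold change of FPKM + 0.5 in mutant against control nerves for the 10 factors, with 95% intervals (circles, genotype as the only term) and the value with the replicate block (diamonds); filled symbols passed an adjusted p of 0.05. Sox9 alone lies to the right of 0, and the 4 filled circles, from -0.34 to -0.54, are Olig2, Sox8, Zfp488 and Myt1.

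The exact permutation test of single genes gave 0.0571 two-sided for each of the 6 factors whose groups separated, the smallest value this design allows. For the remaining factors it gave 0.114 (Olig1 and Nkx2-2), 0.286 (Sox9) and 0.343 (Nkx6-2). None of the 10 changed the sign of its fold change in any of the 17 alternatives. By leave-one-out, Olig2 stayed between -0.50 and -0.34, Sox8 between -0.56 and -0.43, Zfp488 between -0.39 and -0.28 and Myt1 between -0.58 and -0.49, so that the calls moved more than the sizes.

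**Figure D4:**
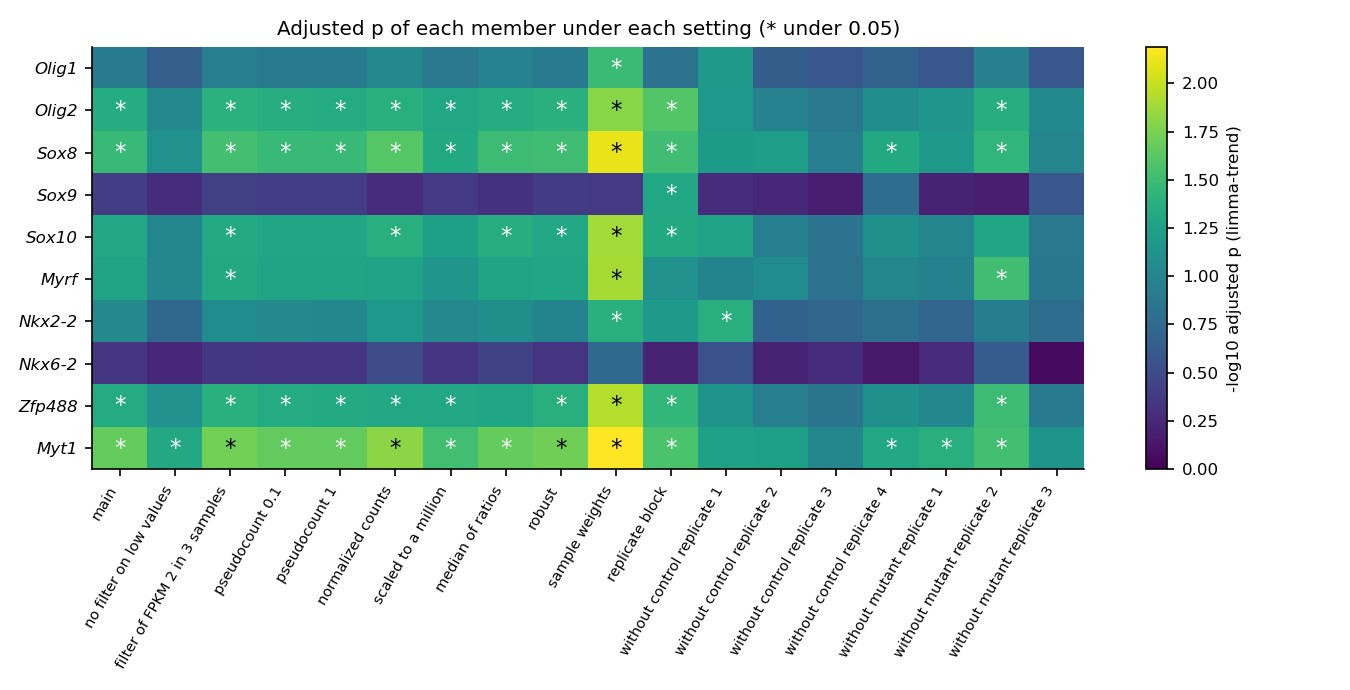
Color shows -log10 of the adjusted p from limma-trend for each of the 10 factors (rows) with the settings as tested, 10 other settings and 7 fits without 1 sample (columns), and a star marks an adjusted p under 0.05. Myt1 holds a star in 13 of the 17 alternatives and Nkx6-2 in none, and the columns without control sample 2, control sample 3 or mutant sample 3 hold no star.

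In control nerves the order of levels was Olig1 at 284 FPKM, Myrf at 196, Sox8 at 160, Sox10 at 143, Olig2 at 73.9, Zfp488 at 35.1, Nkx6-2 at 26.6, Nkx2-2 at 15.4, Myt1 at 9.37 and Sox9 at 9.35. The ranges of Myrf and Sox8, of Sox8 and Sox10, and of Myt1 and Sox9 overlapped over the 4 controls, and the other neighbours in the order did not. Even so, Myrf exceeded Sox8 and Sox8 exceeded Sox10 within each of the 7 samples. At the low end the order turned, for Myt1 was above Sox9 in 3 of 4 control samples and in 0 of 3 mutant samples.

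Regulators known to work with these factors were examined as a list of 28 genes, which includes other Sox proteins, chromatin remodellers and the E proteins that pair with Olig1 and Olig2. The list as a whole had a median log2 fold change of -0.01, close to that of all genes, with 1 gene lower and 0 higher past the threshold. That median ranged from -0.06 without mutant sample 3 to 0.02 without mutant sample 1. The gene was Sp7, a zinc finger factor best known from bone-forming cells, which had 13.2 ± 0.853 FPKM (SD, n = 4) in control and 6.35 ± 1.26 FPKM (SD, n = 3) in mutant nerves and fell by 1.01 in log2 units (SE 0.124, limma-trend adjusted p = 0.0148). It lost its call without control sample 2 or 3 or mutant sample 3, with an adjusted p of up to 0.0589 (limma-trend). Prrx1, a homeobox gene and the next by size, had 0.44 (limma-trend adjusted p = 0.0627). The E protein genes Tcf3, Tcf4 and Tcf12 were at 0.04, 0.03 and -0.01 on the log2 scale.

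Inhibitors of OL differentiation formed a list of 17 genes with a median log2 fold change of 0.17, of which 3 rose and 0 fell. Of the 17, 5 had a negative fold change, and in Tmem98 (-0.06) every mutant sample lay below every control sample. The median of the list was 0.08 without mutant sample 1 and 0.29 without control sample 4. Id2, which encodes a helix-loop-helix protein that lacks a DNA-binding part, had 42.5 ± 3.09 FPKM (SD, n = 4) in control and 60.1 ± 5.12 FPKM (SD, n = 3) in mutant nerves and rose by 0.49 (limma-trend adjusted p = 0.0253). Bmpr1a, a receptor for BMP ligands, rose by 0.43 (limma-trend adjusted p = 0.0320), and Gli3, a transcription factor of hedgehog signalling, rose by 0.55 (limma-trend adjusted p = 0.0434). The Notch effector Hes5 was the most negative of the list, at -0.94 with overlapping groups (limma-trend adjusted p = 0.106), and passed with the replicate block (limma-trend adjusted p = 0.0435). Id4 and Gli2 had 0.34 and 0.47 without passing. All 3 were also called without mutant sample 2, Id2 alone without control sample 1 or mutant sample 1, and 0 of the 3 without control sample 2, 3 or 4 or mutant sample 3. Several of these genes are also used by astrocytes, whose markers were higher in the mutants as given above, and the part of those cells was not tested.

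Myelin and OL genes that are known targets of Sox10, Myrf or Olig2 made a list of 24. Of these, 22 had a negative fold change, with a median of -0.24, and 5 fell past the threshold, with 0 higher. Among them were Dusp15, a phosphatase gene (-0.68, limma-trend adjusted p = 0.00312), Gal3st1 for sulfatide synthesis (-0.59), Cnp (-0.46) and Mag (-0.45). Dusp15 had 53.0 ± 0.945 FPKM (SD, n = 4) in control and 32.9 ± 1.53 FPKM (SD, n = 3) in mutant nerves, and it passed with each of the 7 samples left out in turn. The groups separated downward in 11 of the 24, and in Ugt8a, which encodes the enzyme of galactosylceramide synthesis, every mutant sample was above (log2 fold change 0.29, limma-trend adjusted p = 0.152). With the replicate block 3 genes fell. Mag and Cnp did not pass there (adjusted p of 0.0726 and 0.0605 from limma-trend). The count was 1 without control sample 3 or mutant sample 3, 2 without control sample 2, and 10 without mutant sample 2.

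Markers of the stages of the lineage were examined in 3 lists. Like the other lists here, they were chosen with earlier results of these data known, so their counts and medians are a description. Among 10 OPC markers the median log2 fold change was -0.29, and 3 fell (Susd5 by 0.75, Vcan by 0.55 and Cspg4 by 0.49), or 4 with the replicate block. Pdgfra, another marker of OPCs, was at -0.14 (limma-trend adjusted p = 0.537). Ptprz1, Gpr37l1 and Cspg5 had positive fold changes, at 0.08, 0.09 and 0.05. The part of other cells of the nerve in the values of these markers was not tested. Among 11 markers of newly formed OLs the median was -0.41, and 5 fell (Tmem2, Neu4, Cnksr3, Rras2 and Gpr17, by 0.76, 0.73, 0.65, 0.64 and 0.55), or 8 with the replicate block. Bmp4, which is also in the list of inhibitors, alone had a positive fold change there (0.16). The median was -0.22 over 10 markers of myelinating OLs, all of which are also in the target list, and Mag alone fell, or none with the block. That median was -0.36 without mutant sample 2 and -0.15 without mutant sample 1. Mbp, the most abundant of them, had a log2 fold change of -0.49 without passing (limma-trend adjusted p = 0.147). The median of the 10 transcription factors, -0.36, lay between those of the OPC and newly formed OL markers. Differences between these lists were not tested. In each of the 3 stage lists 0 markers passed without control sample 2, control sample 3 or mutant sample 3.

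Markers of other cells in the nerve had mostly positive fold changes. In the astrocyte list the median was 0.52, with the largest values for Slc1a2 at 0.67 and Gja1 at 0.64, and 8 of 10 markers had every mutant sample above every control sample, against 12.9% of all genes. With the replicate block 7 astrocyte markers rose, whereas 0 did without control sample 1, 2 or 3 or mutant sample 3. The meningeal fibroblast list of 7 genes had a median of 0.60 with 0 past the threshold of limma-trend, 4 at an unadjusted p under 0.05 and 6 with the replicate block, among them Dcn (0.69) and Ogn (0.68). Its summed level overlapped between the groups, at 799 to 1414 FPKM in control and 1302 to 2445 FPKM in mutant samples. Mutant sample 1 stood highest in this list, and without it the median was 0.33. Endothelial and mural markers (9 genes, median 0.30, led by Cdh5 at 0.54) and microglial markers (10 genes, median 0.15, led by Tmem119 at 0.46) had 0 past the threshold of limma-trend, 5 and 3 at an unadjusted p under 0.05, and 3 and 1 with the block. Of all genes, 15.9% were higher at an unadjusted p under 0.05. The endothelial median was 0.20 without control sample 4, and the microglial one was 0.26 without mutant sample 1 and 0.08 without mutant sample 3. The neuron and retina list had 7 of 9 genes tested, a median of 0.20 and 0 called, also with the block and at an unadjusted p under 0.05. Mutant sample 3 decided the sign of that median, which was -0.12 without it and 0.45 without mutant sample 2. No marker of any list was at 0 in all samples. FPKM are shares of a library, and the part of these other cells in the lower share of the OL factors was not tested.

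The genes whose pattern over the 7 samples was nearest to each factor were found by the root mean square distance of log2 values relative to the control mean. For Myt1 they were Adamts4, a secreted protease (distance 0.0461), and Chst3 (0.0551), and for Olig2 they were Tgfa (0.0560) and Slc35f1 (0.0564). Sox8 was nearest to Ssh3 (0.0721) and Kndc1 (0.0797), and Zfp488 to Scrn1 (0.0270) and Elavl3 (0.0333). Sox10 was nearest to Hist3h2ba (0.0328) and Metrn (0.0368), Olig1 to Tmem151a (0.0407) and Iffo1 (0.0417), and Myrf had Fkbp15 among its nearest genes (0.0479). The nearest gene was Fam222a for Nkx6-2 (0.0627), Atoh8 for Sox9 (0.0856) and 2210011C24Rik for Nkx2-2 (0.148), the last 2 farther than for the other factors. Among the factors themselves the closest pair was Olig1 and Sox10 (0.0653), followed by Myrf and Zfp488 (0.0850), and Sox9 stood farthest from any other factor (0.328 to Nkx6-2).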

How the data were processed

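RNA of 7 samples, 4 control and 3 mutant, was grouped by the labels, each a separate mouse. Per the labels, a stranded kit was used, and the submitters' notes name STAR 2.5.1b, RSEM 1.2.22, edgeR and GRCm38. The authors deposited 1 table of 22880 genes with FPKM, made by them from RSEM estimates by transcript length and library size, and a normalized count, a signal they scaled per sample. Their own fold changes and p-values were present and not used, so calls given here can differ from those of the paper. Raw counts were not used here.

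FPKM were tested with limma 3.58.1 (R 4.3.3), in its limma-trend form, after log2(FPKM + 0.5). The 13866 genes that reached 0.5 FPKM in 3 or more samples entered, genotype was the single term, and p-values were adjusted by Benjamini-Hochberg over all of them. The pseudocount understates changes of low genes. Single values and ratios used exact two-sided permutation. Alternatives were other filters, pseudocounts and scalings, robust fitting, sample weights, a replicate block and leaving out each sample.

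The value of 1 read, taken from steps between low normalized counts, gave 31314135 to 43462532 reads in control and 27452647 to 35749911 reads in mutant samples. Of values of 0.5 to 10 reads, 75.7% to 81.0% lay within 0.05 of a whole number, so no count test was run on them. Replicates differed by more than sampling noise (median chi-square per gene 2.14 to 6.34 over pairs).

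The labels do not say what a sample number stands for. Deviations from group means correlated across genes by 0.168, 0.409 and 0.270 between same-numbered samples and by -0.353 to 0.205 between others. The numbers were taken to pair samples from these same values. Mutant sample 1 correlated more with control sample 4 (0.205) than with control sample 1 (0.168), so the pairing is not established. Control sample 4 has no partner.

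All 10 factors, Fasn and, of each context list, the genes past the threshold and the 2 of largest change were named, with the 2 nearest genes of each factor; some of these genes are not reported here, and others named from the lists were chosen after their values were seen. The factors and lists were chosen with earlier results of these data known. Zfp24 was matched by its identifier, since the table uses an older symbol. Promoters came from RefSeq (GRCm38.p6). The procedure was tested on simulated data.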

Additional observations from a re-analysis of the deposited data

Results flagged for a closer look

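The 27 groups of control values examined were the factors, Fasn, the ratios between factors and the medians of the gene lists. Of these, 2 had 1 sample set apart from the others by more than Dixon's critical value for 4 samples, where chance flags about 1 in 20. The median of the target list, relative to the control mean, was 0.0392 in control sample 2 and -0.0111 to -0.0043 in the other control samples, with a gap of 0.864 of the whole range. The median of the neuron and retina list was 0.273 in control sample 3 and -0.143 to -0.0821 in the other control samples, with a gap of 0.853 of the range. None of the 10 factors and none of the 5 ratios had a control sample set apart in this way. Groups of 3 mutant samples were not examined.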

How the results depend on the processing

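Over 10 factors and 17 alternatives, 132 of the values kept direction and side of the threshold, 13 passed newly, 25 no longer passed and 0 reversed. Without a filter on low values, 62 genes were lower and 33 higher, against 188 and 175, and 1 factor was called. With sample weights the counts were 617 and 908, with 8 factors lower. With the replicate block they were 269 and 890, with 1 factor higher and the ratio of Myrf to Sox10 reversed at -0.00731. With the deposited normalized counts, 267 genes were lower and 103 higher (27.8% higher, against 48.2%), with FPKM scaled to a common total 147 and 94 (39.0%), and by median of ratios 221 and 135 (37.9%). Leaving out 1 sample gave 4 to 344 genes lower, 1 to 563 higher, 0 to 5 factors lower and a Myrf to Sox10 ratio difference of -0.0177 to 0.106. The fits without 1 sample have fewer samples by construction, and the cause of the other differences was not tested. Unadjusted, 3387 genes had a p under 0.05. The replicate block changed no call of a factor other than those of Sox9 and Sox10. The count tests of edgeR and DESeq2 were not run, because 75.7% to 81.0% of low values gave whole reads. With 4 mice against 3 the exact tests cannot reach 0.05, and the lowest read number behind a value of a factor was 446.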

Other observations

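Because Olig2 regulatory elements drive Cre in the mutants, the genes around Olig2 were listed. Of 19 other genes of the table within 500 kb on chromosome 16, 18 were tested and 0 passed the threshold of limma-trend (6 at an unadjusted p under 0.05, as had 24.4% of all genes), with log2 fold changes from -0.31 to 1.28 and a median of 0.08. Olig1, at 41.1 kb, had the lowest of these. The largest were Mrap, a cofactor of melanocortin receptors, from 1.01 to 3.76 FPKM (1.28, SE 0.401, limma-trend adjusted p = 0.106), and Il10rb, a cytokine receptor gene, from 9.87 to 14.5 FPKM (0.52, SE 0.116, limma-trend adjusted p = 0.0559). Of the 18, 5 had a negative fold change.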
